A study of Mus musculus with 6 samples.

Results

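The genes described here carry vitamin A derivatives, turn them into retinoic acid and bind it in the nucleus. They are 9 genes named by symbol (Rlbp1, Aldh1a1, Aldh1a2, Aldh1a3, Crabp1, Crabp2, Rara, Rarb and Rxra), of which 8 are listed among the 17006 genes measured. Aldh1a2 is not listed, so its expression was not analysed here. Total RNA was sequenced in bulk from primary neural stem cells of the subventricular zone, a stem cell niche of the adult mouse brain. The aged group holds 3 libraries from C57BL/6 mice of 15 to 18 months, and the young group 3 libraries from C57BL/6 mice of 2 months. For both ages, microdissected tissue from 5 mice went into a pool, and the isolated cells were kept in a medium for proliferation, so the libraries describe cultured cells. Nothing in the labels says that the libraries of a group came from separate cultures, so the p-values given here measure only the spread between these libraries, which may be technical. The set was chosen by pathway, but also selected on the measured FPKM of aged against young libraries, since the lower Rlbp1 of aged libraries was in view. The differences of the 9 genes between the ages are therefore given as a description, with no p-value, and the calls that the fit over all genes made among them support nothing.

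Retinol enters cells, is bound by cellular carriers, is oxidised to retinaldehyde by retinol dehydrogenases, and is then oxidised irreversibly to retinoic acid by the retinaldehyde dehydrogenases of the ALDH1A family. Retinoic acid binds retinoic acid receptors (RARs), which sit on DNA as pairs with retinoid X receptors (RXRs), and enzymes of the CYP26 family clear it. In the nervous system the pathway is known for patterning the embryonic hindbrain and spinal cord and for promoting neuronal differentiation.

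Values are in FPKM, fragments per kilobase of transcript scaled to library size by the authors. Judged by the size of the steps between low values, each library rests on about 5272000 to 5442000 counted reads. FPKM is a level per length, so levels of different genes can be set beside each other. Across genes, which do not count as replicates, Pearson's r of log2(FPKM + 1) was 0.991 to 0.992 between aged and young libraries and 0.992 to 0.993 within groups. The progenitor markers Sox2 (176.0 to 185.6 FPKM in aged and 165.0 to 174.1 FPKM in young libraries) and Nes (255.8 to 264.1 FPKM in aged and 269.5 to 275.2 FPKM in young libraries) were abundant in every library.

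The carriers, enzymes and receptors lay at very different levels. Over the 6 libraries the mean was 11.8 FPKM for Rlbp1, 11.0 FPKM for Rarb, 9.18 FPKM for Rxra, 7.45 FPKM for Aldh1a1, 4.0 FPKM for Rara and 2.69 FPKM for Aldh1a3. Crabp1 and Crabp2 came last with 0.255 and 0.140 FPKM. Aldh1a1, Rara, Aldh1a3 and Crabp1 followed each other in this order in all 6 libraries, with no overlap of neighbouring ranges, and Crabp1 and Crabp2 overlapped. The ranges of Rlbp1, Rarb, Rxra and Aldh1a1 overlapped with their neighbours in this order over all 6 libraries. The order of means also differed by age. In aged libraries Rarb led with 10.7 FPKM, ahead of Rxra with 9.08 and Rlbp1 with 9.0 FPKM, and neighbouring ranges overlapped. In young libraries Rlbp1 led with 14.7 FPKM, above Rarb in 3 of 3 of them. The changed place of Rlbp1 follows from its own values and is no further result.

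**Figure D1:**
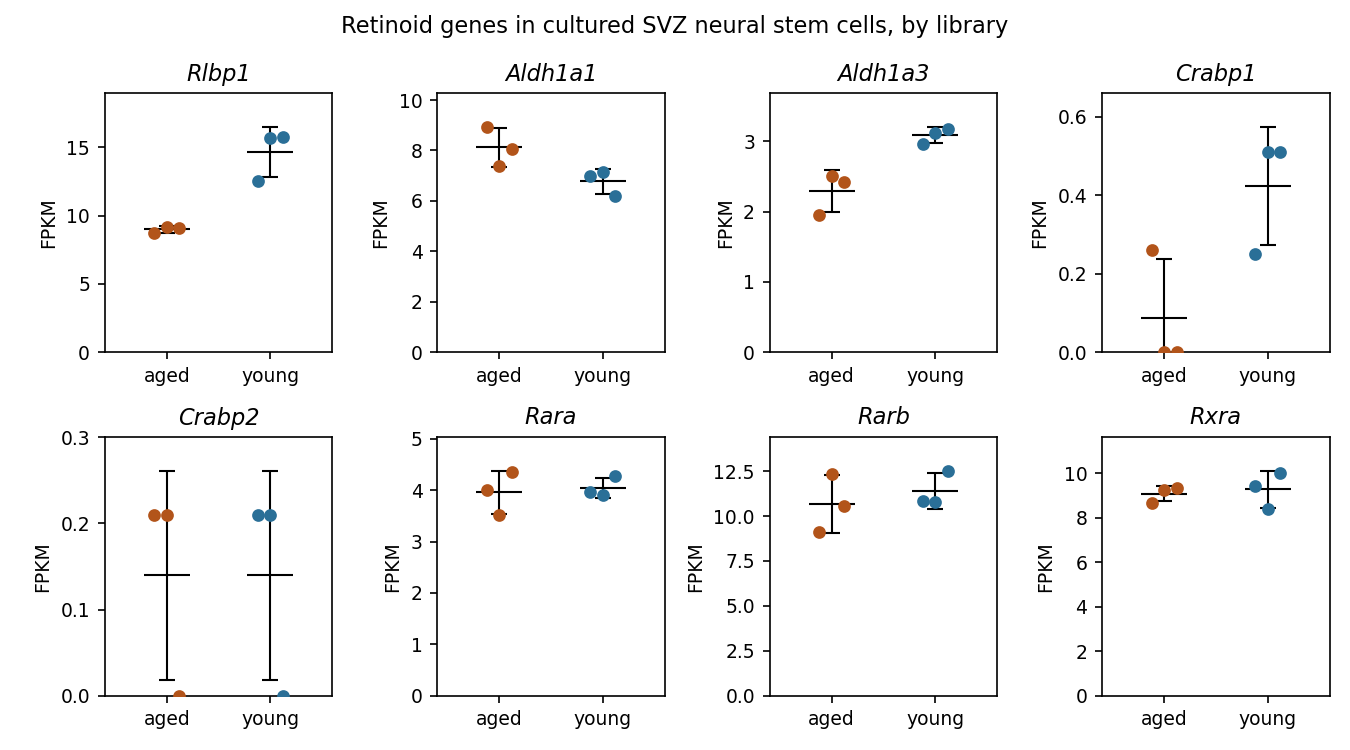
FPKM of the 8 listed retinoid genes in each of the 3 aged (left) and 3 young (right) libraries, with black bars for the mean and SD and each axis starting at 0. Rlbp1 lies at 8.71 to 9.20 FPKM in aged and 12.54 to 15.74 FPKM in young libraries, and the receptors Rara, Rarb and Rxra overlap between the ages.

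Rlbp1 (gene 19771, mm10 chromosome 7, 79374865 to 79392250) encodes the cellular retinaldehyde-binding protein, known from the retina, where it carries 11-cis retinoids in pigment epithelium and Müller glia. It was at 8.71, 9.20 and 9.10 FPKM in aged libraries and at 12.54, 15.68 and 15.74 FPKM in young libraries. All 3 aged libraries were below all 3 young ones, and the aged libraries lay close together. The means were 9.0 ± 0.26 FPKM in aged and 14.7 ± 1.83 FPKM in young libraries (SD, n = 3 each), about 102.3 and 170.3 estimated reads per library, and the aged mean was 0.614 times the young mean. The difference of log2(FPKM + 1) was -0.64 ± 0.09 (SE), and the added 1 makes this scale understate changes at low levels. Among young libraries, young 1 was lower than the other two. From the estimated reads, counting alone gives a spread of 9.89% of the mean in aged and 7.66% in young libraries, against an observed spread of 2.88% and 12.5%. The value sums transcripts from 2 annotated accessions, so the estimated reads of Rlbp1 are approximate. In bulk RNA, fewer cells that express a gene and less of its RNA per cell cannot be told apart.

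The nearest tested genes on the chromosome lay closer together between the ages. Since the difference of Rlbp1 was in view at the choice of genes, this is a description and no further result. Fanci is a DNA repair gene 62 bases beyond the upper coordinate of the Rlbp1 annotation, the 5′ side of this minus-strand gene. It was at 14.3 FPKM in aged and 14.4 FPKM in young libraries, with overlap. Abhd2, an esterase gene on the other side, was at 31.81 to 32.95 FPKM in aged and 33.65 to 35.12 FPKM in young libraries, without overlap but with a log2 change of -0.09 (limma adjusted p = 0.452).

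Of the retinaldehyde dehydrogenases, which make retinoic acid, Aldh1a1 and Aldh1a3 lay on opposite sides. Aldh1a1 (gene 11668, chromosome 19, 20492583 to 20643463) was at 8.92, 7.40 and 8.05 FPKM in aged libraries and at 6.97, 7.15 and 6.19 FPKM in young libraries. The aged values were all above the young ones, by little: the lowest aged library and the highest young library were 7.40 and 7.15 FPKM. Means were 8.12 ± 0.763 FPKM in aged and 6.77 ± 0.510 FPKM in young libraries (SD, n = 3 each), and log2(FPKM + 1) was higher by 0.23 ± 0.09 (SE) in aged libraries. The ratio of Rlbp1 to Aldh1a1 was 0.976 to 1.24 in aged and 1.80 to 2.54 in young libraries. That the ratio does not overlap follows from the values of both genes and is no further result. Aldh1a1 has a closely similar copy in the mouse, Aldh1a7, at 0.61 to 0.81 FPKM in aged and 0.72 to 1.01 FPKM in young libraries, and the authors' counting could have split reads between them. The noncoding gene E030003E18Rik overlaps the Aldh1a1 annotation and was at 2.08 to 3.49 FPKM in aged and 1.88 to 3.08 FPKM in young libraries. With the strand setting unknown, reads of the overlapping stretch cannot be told apart.

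Aldh1a3 (gene 56847, chromosome 7, 66390892 to 66427477) was at 1.95, 2.51 and 2.42 FPKM in aged libraries and at 2.96, 3.12 and 3.18 FPKM in young libraries. All aged values were below all young ones. Means were 2.29 ± 0.301 FPKM in aged and 3.09 ± 0.114 FPKM in young libraries (SD, n = 3 each), or about 42.0 and 57.8 estimated reads, with a log2 change of -0.32 ± 0.11 (SE). Counting alone gives a spread of 15.4% of the mean in aged and 13.2% in young libraries, against an observed 13.1% and 3.68%. The sum of both enzymes overlapped between the ages, at 9.91 to 10.87 FPKM in aged and 9.37 to 10.27 FPKM in young libraries. Aldh1a3 made up 17.9% to 25.3% of that sum in aged libraries and 29.8% to 33.9% in young libraries. That this share does not overlap follows from the values of both enzymes and is no further result.

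Both cellular retinoic acid-binding proteins were barely detected. Crabp1 (gene 12903, chromosome 9) was at 0.26, 0 and 0 FPKM in aged libraries and at 0.25, 0.51 and 0.51 FPKM in young libraries. In reads, the highest of these values is about 2.23. Crabp2 (gene 12904, chromosome 3) was at 0.21, 0.21 and 0 FPKM in aged libraries and at 0.21, 0.21 and 0 FPKM in young libraries, which is 1 read or none. At this depth no difference between the ages was detectable for either gene, and both fell under the filter of a mean of 1 FPKM.

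The receptors overlapped between the ages. Rara (gene 19401, chromosome 11, 98927800 to 98974942), the broadly expressed RAR, was at 4.01, 3.52 and 4.35 FPKM in aged libraries and at 3.96, 3.91 and 4.27 FPKM in young libraries. Rarb (gene 218772, chromosome 14, 16430839 to 17082331), an RAR that is itself induced by retinoic acid, was at 9.11, 12.33 and 10.58 FPKM in aged libraries and at 10.81, 10.79 and 12.52 FPKM in young libraries. Rxra (gene 20181, chromosome 2, 27676445 to 27763319), a partner of RARs and of other nuclear receptors, was at 8.68, 9.24 and 9.33 FPKM in aged libraries and at 9.43, 8.38 and 10.02 FPKM in young libraries. Aged and young libraries were mixed in each of the 3 genes. The log2 changes were -0.03 ± 0.10 for Rara, -0.09 ± 0.11 for Rarb and -0.02 ± 0.08 for Rxra (SE), each within its error of 0. Rarb was the most abundant RAR, with 59.1% to 67.05% of the summed FPKM of Rara, Rarb and Rarg in aged libraries and 62.3% to 65.7% in young libraries.

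Rarb is the textbook target of the pathway, and the promoter of its annotated internal start holds a well-known retinoic acid response element. The bases before that start are shown for this reason. Beside them stand those before an annotated start of Rlbp1, whose log2 change was the largest among the 6 genes that passed the filter. Both are RefSeq sequence of GRCm38.p6 on the minus strand, 5′ to 3′ in the direction of the gene, and capitals mark a direct repeat spaced by 5 (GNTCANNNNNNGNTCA).
Rarb, chr14:16575477-16575726: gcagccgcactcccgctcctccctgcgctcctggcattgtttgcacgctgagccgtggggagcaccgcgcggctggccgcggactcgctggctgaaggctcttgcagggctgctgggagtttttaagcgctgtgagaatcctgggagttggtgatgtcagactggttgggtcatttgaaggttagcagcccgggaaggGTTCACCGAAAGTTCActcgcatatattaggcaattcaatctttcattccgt
Rlbp1, chr7:79387028-79387277: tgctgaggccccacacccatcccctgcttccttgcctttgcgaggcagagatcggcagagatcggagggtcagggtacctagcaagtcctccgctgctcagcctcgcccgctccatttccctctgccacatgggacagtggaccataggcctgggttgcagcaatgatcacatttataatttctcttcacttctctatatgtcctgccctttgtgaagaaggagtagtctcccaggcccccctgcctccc
Repeats spaced by 5, 2 and 1 (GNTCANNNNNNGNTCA, GNTCANNNGNTCA and GNTCANNGNTCA) were searched on both strands from 250 bases before to 50 bases after each start, in the 12 windows held for 7 of the 9 genes, all but Aldh1a3 and Crabp2. These repeats were picked with the Rarb promoter known. The single match was the one shown, 52 to 37 bases before the Rarb start. Of all 32851 windows of this length, 0.861% held the repeat spaced by 5, 1.12% that spaced by 2 and 1.26% that spaced by 1. A match is a description of the letters and not of binding.

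Across all genes, limma called 86 of the 11912 tested genes at an adjusted p under 0.05, which is 0.722%. Of these, 39 (0.327%) were higher and 47 (0.395%) lower in aged libraries. Of the 6 retinoid genes that passed the filter, Rlbp1 was called, as lower, and the other 5 were not. Groups did not overlap in Rlbp1, Aldh1a1 and Aldh1a3, that is in 3 of 6, against 17.6% of all tested genes (8.98% with aged above young and 8.58% with aged below young). Since this contrast was in view when the genes were chosen, nothing is read from these counts. The call of Rlbp1 was lost without limma's trend, with the replicate number as a block, without a filter on low values, and when any 1 library other than young 1 was left out.

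**Figure D2:**
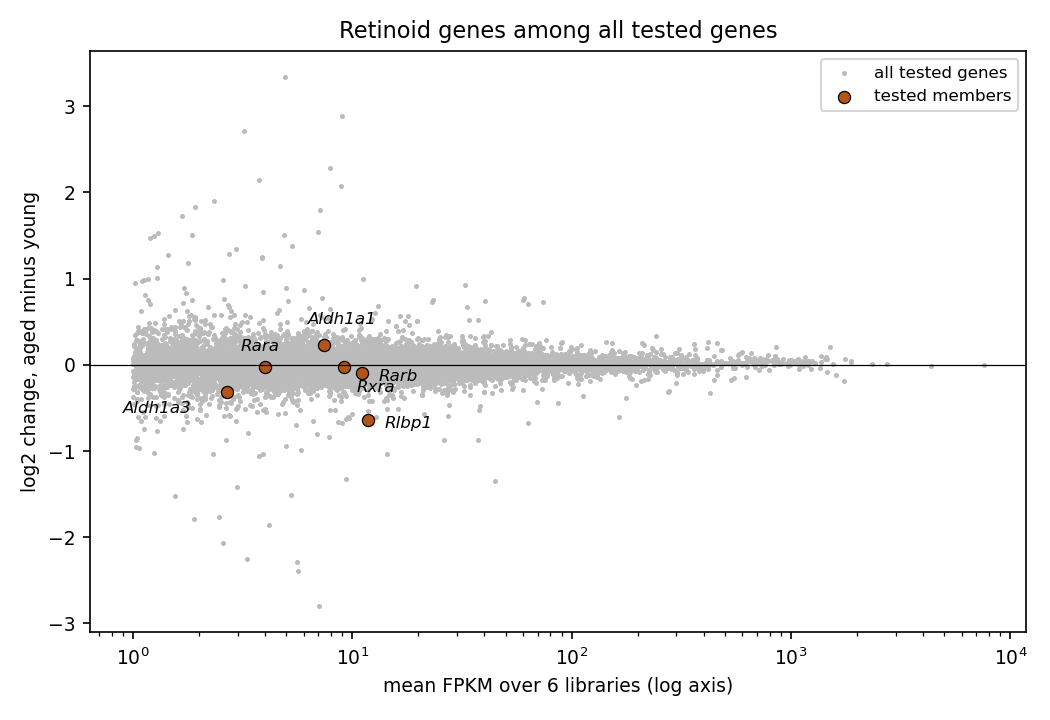
Log2 change of FPKM + 1, aged minus young, against mean FPKM over the 6 libraries (log axis) for all 11912 tested genes (grey) and the 6 tested members (orange). Rlbp1 at -0.64 lies below the bulk of genes of similar level, and Rara, Rarb and Rxra lie near 0.

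The other genes of the pathway were taken from a list of 75, ordered by role, of which 55 are listed and 30 passed the filter. By limma, 1 of the 30 fell, 0 rose and 29 did not pass, against 86 called among all 11912 tested genes (0.722%). At an unadjusted p under 0.05, 3 of the 30 were higher and 2 lower, or 16.7%. Among all 11912 tested genes, 751 were higher and 661 lower, or 11.9%. The median log2 change of the 30 was 0.0093, against 0.0027 for all tested genes. The groups did not overlap in 6 of the 30 (20.0%, against 17.6% of all tested genes), with aged libraries above young ones in 3 and below in 3. The shares at an unadjusted p under 0.05 and without overlap lie near those of all genes, and nothing is read from the 1 call. The single genes named below for a low unadjusted p or for no overlap are therefore given as values only.

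**Figure D3:**
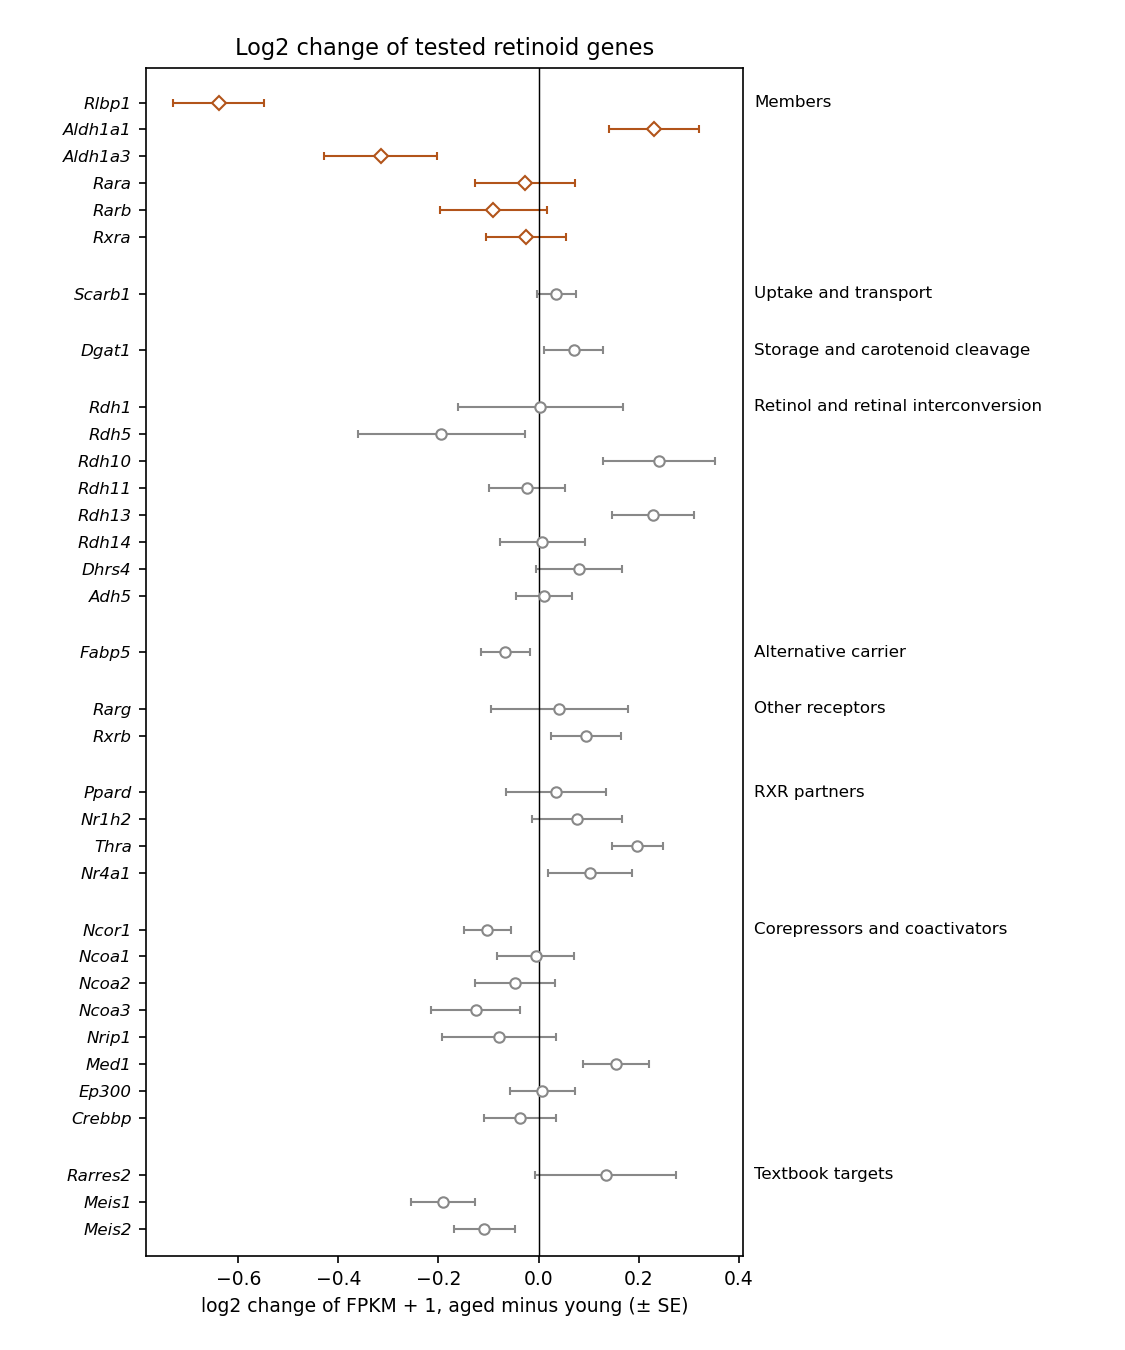
Log2 change of FPKM + 1, aged minus young, with its SE, for the 6 tested members and 28 other tested pathway genes by role, the members as diamonds with no call marked and the others as circles. Rlbp1 at -0.64 lies lowest among the members, and limma called 0 of the 28 others drawn.

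Upstream of the enzymes, the most abundant genes described here for uptake and storage were Scarb1 and Dgat1. Scarb1, a lipoprotein receptor that also takes up carotenoids, was at 60.8 FPKM in aged and 59.3 FPKM in young libraries (limma adjusted p = 0.794). Dgat1, an acyltransferase that can esterify retinol, was at 18.3 FPKM in aged and 17.3 FPKM in young libraries (0.722). Lrat, the main retinol esterifying enzyme, reached 0.03 FPKM in aged and 0.07 FPKM in young libraries, and the retinol transporter Stra6 was detected in aged 2 alone, at 0.07 FPKM. The endocytic receptor Lrp2 was at 0.550 FPKM in aged and 0.507 FPKM in young libraries. The carotenoid-cleaving enzymes were also low, Bco2 at 1.04 and Bco1 at 0.433 FPKM in aged, and 0.667 and 0.177 FPKM in young libraries. Rbp4, the retinol carrier of blood, stayed at 0.15 FPKM or less in aged and 0.20 FPKM or less in young libraries.

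Of 16 genes for enzymes that interconvert retinol and retinaldehyde, 11 are listed, 8 passed the filter and 0 were called by limma (1 was higher at an unadjusted p under 0.05). The most abundant were Adh5, an alcohol dehydrogenase best known for formaldehyde, at 87.6 FPKM in aged and 86.9 FPKM in young libraries, Rdh11, a retinaldehyde reductase, at 29.05 to 31.14 and 27.63 to 34.31 FPKM, and Dhrs4 at 19.5 and 18.3 FPKM (limma adjusted p from 0.784 to 0.968). Rdh10, the retinol dehydrogenase that supplies retinaldehyde in the embryo, was at 4.66 to 5.88 FPKM in aged and 3.88 to 4.93 FPKM in young libraries (0.448). Rdh13 was at 7.54 to 9.02 FPKM in aged and 6.67 to 7.10 FPKM in young libraries, without overlap (0.313). Dhrs3, a retinaldehyde reductase induced by retinoic acid, was at 0.11 to 0.28 FPKM in aged and 0 to 0.32 FPKM in young libraries. Rdh10, Rdh13 and Dhrs3 were named after their values were seen.

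For clearance, Cyp26b1 was at 0.04 to 0.16 FPKM in aged and 0 to 0.04 FPKM in young libraries, close to the detection limit, and Cyp26a1 and Cyp26c1 were not analysed here. Aldh8a1, an aldehyde dehydrogenase that acts on 9-cis retinal, reached at most 0.24 FPKM in any library, at a mean of 0.083 FPKM in aged and 0.080 FPKM in young libraries. In contrast with the CRABP genes, Fabp5, a fatty acid-binding protein that can also carry retinoic acid, was the most abundant gene of the pathway list. It was at 386.7 ± 28.7 FPKM in aged and 404.2 ± 4.46 FPKM in young libraries (SD, n = 3 each; limma adjusted p = 0.670).

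**Figure D4:**
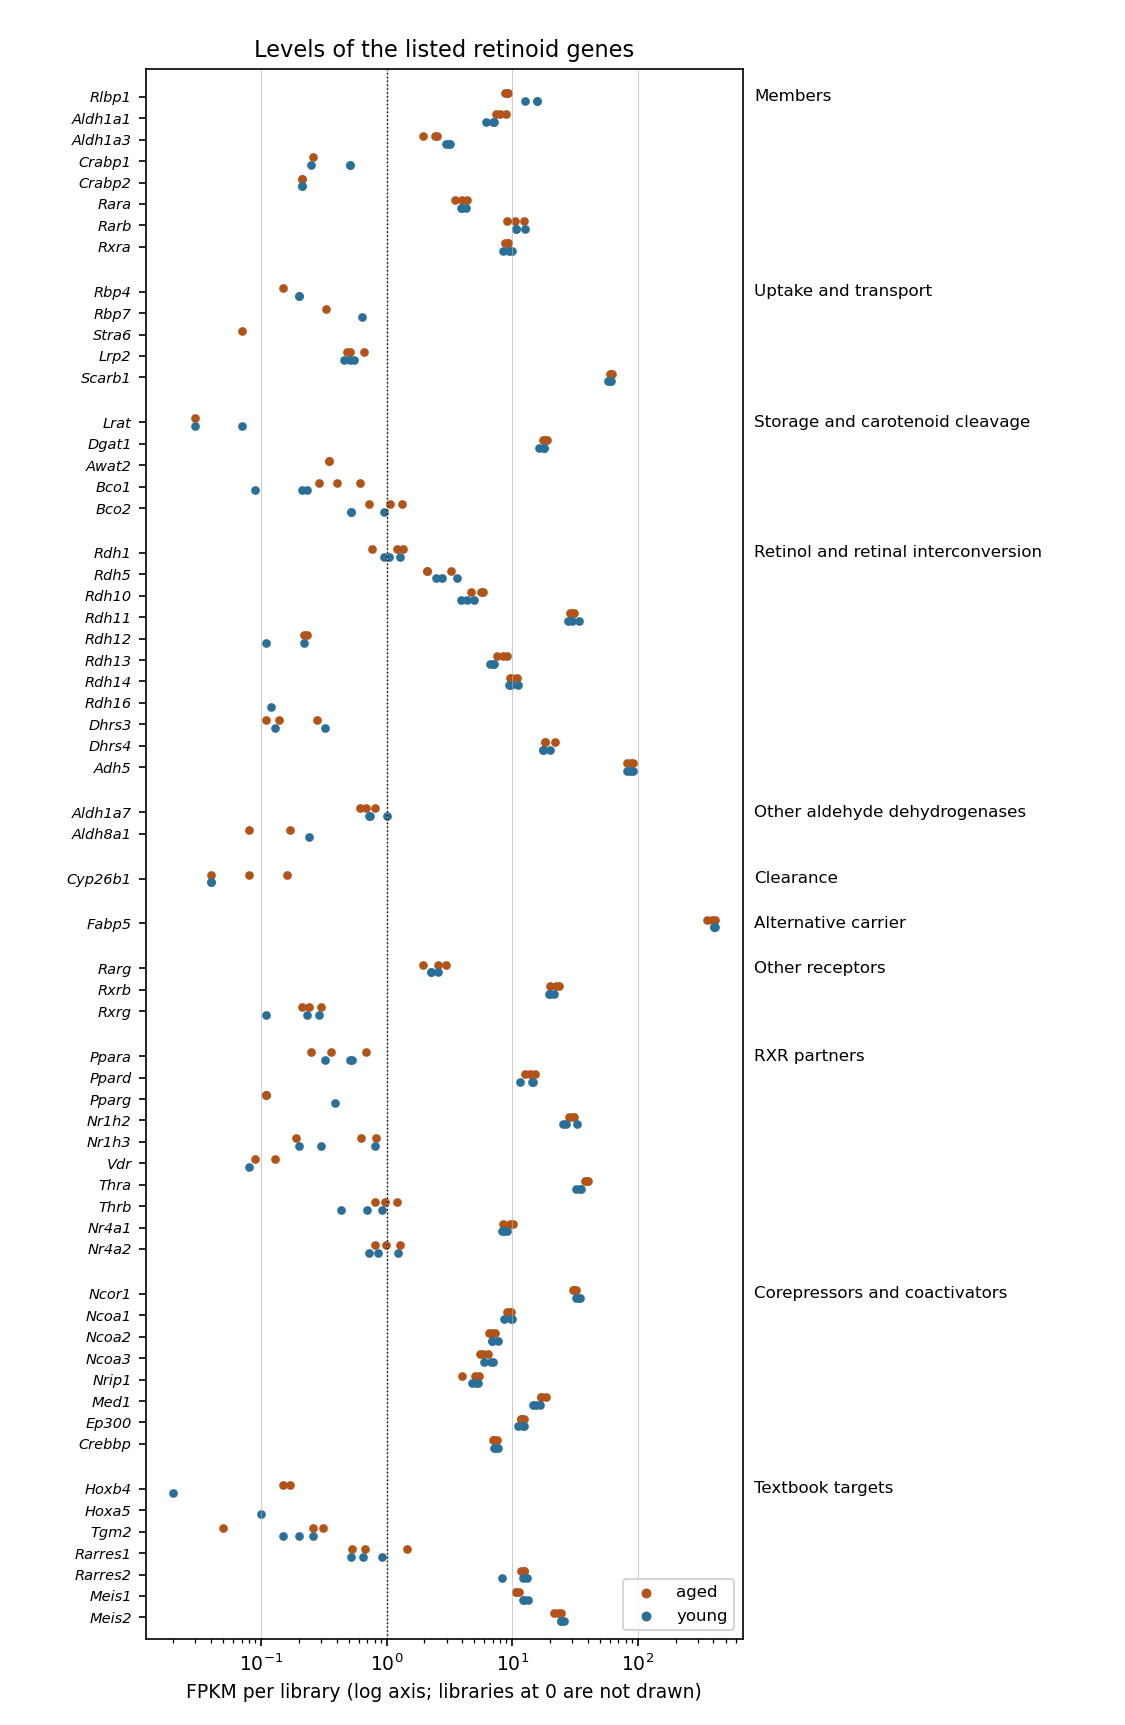
FPKM in each aged (orange, upper) and young (blue, lower) library on a log axis for the 8 listed members and 53 other listed pathway genes by role, with a dotted line at 1 FPKM and libraries at 0 left out. The carrier Fabp5 lies near 400 FPKM, the members Rlbp1, Aldh1a1, Rarb and Rxra between 6.19 and 15.74 FPKM, and Crabp1, Crabp2 and Cyp26b1 under 1 FPKM.

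Among the other receptors, Rxrb was the most abundant RXR, at 21.9 FPKM in aged and 20.4 FPKM in young libraries (limma adjusted p = 0.673), 2.13 to 2.57 times Rxra in aged and 1.95 to 2.57 times in young libraries. Rarg was at 2.49 FPKM in aged and 2.37 FPKM in young libraries (0.942), and Rxrg at 0.250 and 0.210 FPKM. The sum of the RARs overlapped between the ages, at 15.07 to 18.39 FPKM in aged and 16.96 to 19.06 FPKM in young libraries, as did that of the RXRs, at 29.47 to 32.99 and 29.62 to 30.12 FPKM. Of 11 other nuclear receptors that pair with RXRs, 10 are listed, 4 passed the filter and 0 were called (1 was higher at an unadjusted p under 0.05). That gene was Thra, a thyroid hormone receptor, at 37.82 to 40.11 FPKM in aged and 32.13 to 35.15 FPKM in young libraries, which did not overlap (limma adjusted p = 0.156). The oxysterol receptor Nr1h2 was at 29.8 FPKM in aged and 28.4 FPKM in young libraries (0.812) and Ppard, a fatty acid receptor, at 13.8 and 13.5 FPKM (0.933).

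All 9 corepressors and coactivators passed the filter and 0 were called (1 was higher and 0 were lower at an unadjusted p under 0.05). Ncor1, a corepressor, was at 30.32 to 32.26 FPKM in aged and 32.41 to 34.39 FPKM in young libraries, without overlap (limma adjusted p = 0.446). Med1, a Mediator subunit that nuclear receptors bind, was at 17.4 FPKM in aged and 15.6 FPKM in young libraries (0.404). Its ranges, 16.84 to 18.47 and 14.62 to 16.54 FPKM, did not overlap, and it was the 1 higher gene. Of 14 further textbook targets of retinoic acid, 7 are listed, 3 passed the filter and 0 were called (0 higher and 1 lower at an unadjusted p under 0.05). Meis2 and Meis1, homeobox factors, were at 23.0 and 10.9 FPKM in aged libraries and at 24.9 and 12.6 FPKM in young libraries (limma adjusted p = 0.560 and 0.281). Meis1 was the 1 lower gene, at 10.65 to 11.32 FPKM in aged and 12.08 to 13.27 FPKM in young libraries, without overlap. Rarres2, which encodes the secreted protein chemerin, was at 12.2 FPKM in aged and 11.2 FPKM in young libraries (0.784), and it also stands on the list of ependymal markers. Tgm2, a transglutaminase named after its values were seen, stayed at 0.05 to 0.31 FPKM in aged and 0.15 to 0.26 FPKM in young libraries. Levels of target genes differed widely. Rarb was at 9.11 FPKM or more in every library, and Meis2, Meis1 and Rarres2 were at 8.27 FPKM or more. The targets Dhrs3, Cyp26b1, Tgm2 and Stra6, put together after their values were seen, were at 0.32 FPKM or less in every library.

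The genes whose pattern over the 6 libraries was nearest to that of Rlbp1 were found among the tested genes. Symbols of small RNAs, clone-type names and pseudogenes were left out. Nearness was the root mean square difference of log2(FPKM + 1) after each gene's mean was removed. In order of likeness they were Rimbp2 (0.076), Angpt2 (0.097), Pcp4l1 (0.107), Dmrta2 (0.112) and Trf (0.118). Rimbp2, which encodes a presynaptic scaffold, was at 1.48 FPKM in aged and 2.58 FPKM in young libraries. Angpt2, a ligand of the endothelial receptor TIE2, was at 16.9 and 25.5 FPKM, Dmrta2, a transcription factor of cortical progenitors, at 2.04 and 3.28 FPKM, and Pcp4l1 at 8.77 and 14.1 FPKM, in aged and young libraries. Trf, which encodes transferrin, was at 48.5 FPKM in aged and 78.1 FPKM in young libraries. These genes were picked for a profile that separates the ages, so their difference is no further result. All 5 were lower in each aged library than in each young library, and Rimbp2, Angpt2 and Dmrta2 shared the lower value of Rlbp1 in young 1.

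**Figure D5:**
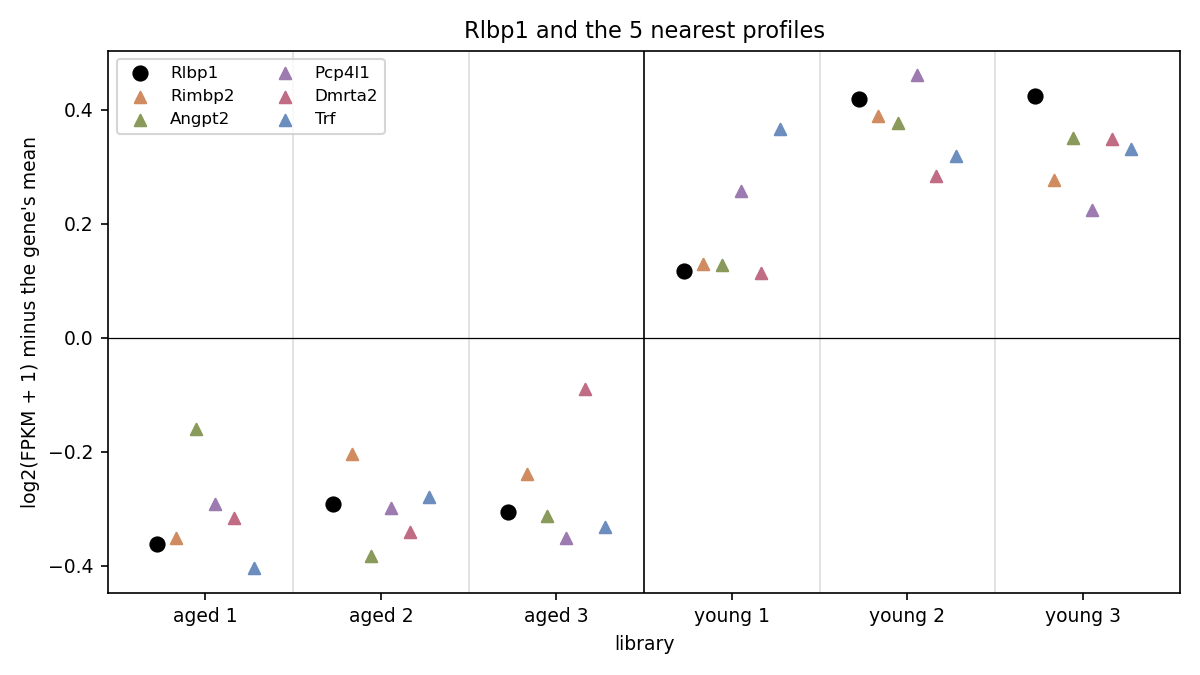
Values of log2(FPKM + 1) minus each gene's mean, in the 3 aged and 3 young libraries, for Rlbp1 (black circles) and its 5 nearest profiles (triangles). All lie below 0 in aged and above 0 in young libraries, and Rlbp1 is lowest among young libraries in young 1.

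Marker lists of other cell types moved with the ages in part. The summed level of 7 fibroblast and meningeal markers was 4.44 to 5.90 FPKM in aged and 1.96 to 2.48 FPKM in young libraries. Col1a1 was at 2.04 to 2.81 and 0.31 to 0.54 FPKM, and Col1a2 at 0.54 to 0.75 and 0 to 0.04 FPKM. Foxc1 was at 1.71 to 2.38 and 1.49 to 1.81 FPKM. Dcn was at 0.10 FPKM in young 3 and at 0 in every other library. The 6 neuronal markers summed to 16.28 to 19.42 FPKM in aged and 12.77 to 14.24 FPKM in young libraries, most of it Tubb3, at 11.26 to 12.69 and 8.83 to 10.41 FPKM, with Snap25 at 3.68 to 5.22 and 2.66 to 3.26 FPKM and Rbfox3 at 0.55 to 0.86 and 0.36 to 0.85 FPKM. The 4 pericyte markers summed to 17.28 to 19.40 FPKM in aged and 12.79 to 14.69 FPKM in young libraries, nearly all of it Cspg4, which oligodendrocyte progenitors also express, while Pdgfrb stayed at 0.03 FPKM or less and Rgs5 at 0.10 FPKM or less in every library.

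The sums of choroid plexus, oligodendrocyte and astrocyte markers were lower in aged libraries. The 4 choroid plexus markers summed to 0.34 to 0.59 FPKM in aged and 1.00 to 1.03 FPKM in young libraries. Kcnj13 was at 0.14 FPKM in young 1 and at 0 in every other library. Most of the sum was Otx2, at 0.22 to 0.43 and 0.84 to 0.95 FPKM. That is only about 2.01 to 4.01 estimated reads in aged and 7.93 to 8.97 in young libraries. The 5 oligodendrocyte markers summed to 2.85 to 3.19 FPKM in aged and 3.52 to 3.84 FPKM in young libraries, with Mbp at 0.29 to 0.43 and 0.56 to 0.89 FPKM and Mog at 0.22 FPKM or less throughout. Astrocyte markers went both ways: the sum of 5 was 542.9 to 547.1 FPKM in aged and 551.0 to 557.1 FPKM in young libraries, but Aldh1l1 alone was lower in aged libraries, at 325.7 to 331.4 and 347.0 to 350.0 FPKM. Of the other 4, Gfap (4.26 to 4.86 and 3.39 to 3.87 FPKM), Slc1a3 (196.4 to 201.4 and 186.8 to 195.7 FPKM) and S100b (7.31 to 7.59 and 6.46 to 7.20 FPKM) were higher in aged libraries without overlap, and Aqp4 overlapped at 3.58 to 5.23 and 3.55 to 4.19 FPKM. Sums overlapped between the ages for endothelial, microglial, ependymal and progenitor markers, with Pecam1 never above 0.17 FPKM, Ptprc never above 0.04 FPKM, Foxj1 at 8.49 to 12.15 FPKM in aged and 10.76 to 12.74 FPKM in young libraries, and Hydin at 0.11 FPKM or less. Of all these markers limma called Col1a1 alone. The part of these markers in the differences of Rlbp1, Aldh1a1 and Aldh1a3 was not tested.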

How the data were processed

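Per the labels' protocols, rRNA was removed from 1 ug of total RNA and MGI kits were used for the libraries. Each table holds 1 FPKM per gene, per the file headers, rounded by the authors to 2 decimals. The submitters' processing notes list TopHat, Cuffdiff and mm10 without versions. The annotation release, the strand setting and the scaling between libraries are not given in the sources used here.

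From these values, limma 3.58.1 in R 4.3.3 (lmFit, eBayes with a trend, two-sided) was fitted to log2(FPKM + 1) of all 11912 genes whose mean over the 6 libraries reached 1 FPKM. P-values were adjusted by Benjamini-Hochberg over all of them, with a threshold of 0.05, and the fit was tested on simulated data. Low FPKM of single-transcript genes came in steps of 1 read, which gave the depth and the estimated reads. Among values of about 4 to 6 reads, which did not set the step, 61.0% to 63.7% lay within 0.15 of a whole read, against 30.0% by chance. Coordinates, counted from 1, come from the RefSeq gene table of GRCm38.p6, in which 16962 of the 17006 Entrez identifiers were found. Promoter windows also come from RefSeq (GRCm38.p6). Tables and figures were made with matplotlib 3.10.9, numpy 2.4.6, pandas 2.3.3 and Python 3.11.15. Alternatives changed the pseudocount, filter, scaling, moderation, weights, threshold, replicate block and libraries kept.

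The members and lists were chosen with earlier results of these data known. The text names all members, and up to 3 most abundant genes of each role in the pathway list and any called there. It also names the 5 profiles nearest to Rlbp1 after the exclusions given above, and the first listed markers of each cell type. Of the pathway list, 2 genes, among them the 1 called, are counted but not reported here. Other genes were named after their values were seen.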

Additional observations from a re-analysis of the deposited data

How the results depend on the processing

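The count of all called genes was 86. It was 11 without limma's trend, 22 with the replicate number as a block, 19 at a threshold of 0.01, and 39 to 70 with 1 library left out (lowest without young 3). The 1 called member, Rlbp1, was 0 called without a filter, without the trend, with the replicate block and at a threshold of 0.01, and 0 to 1 with 1 library left out. Of the other pathway genes 1 was called, and 0 were called without the trend and at a threshold of 0.01, and 0 to 1 with 1 library left out (0 without young 3). With the replicate block that count stayed at 1. The cause of these losses was not tested. Same-numbered libraries did not deviate together as a set (correlations of their deviations 0.01, -0.07 and 0.11). Aged 1 correlated best with young 2 (0.111), aged 2 with young 1 (0.072) and aged 3 with young 3 (0.108). The numbers were therefore not taken as pairs. The log2 change of Rlbp1 stayed between -0.74 and -0.48 in 17 alternatives, and Aldh1a1 (0.16 to 0.29) and Aldh1a3 (-0.42 to -0.15) also kept their sign. Rara, Rarb and Rxra came out on both sides of 0, between -0.19 and 0.04. The median log2 change of all genes was -0.010 after rescaling to TPM and nearer to 0 under the other scalings. Depth limits Crabp1, Crabp2 and Cyp26b1, which rest on a few reads.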

Other observations

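The genes next to the other retinoid genes gave values that belong to no comparison above. Lrrk1, 2551 bases from Aldh1a3, was at 0.89 to 1.32 FPKM in aged and 1.28 to 1.42 FPKM in young libraries. Top2b, 52 bases from the Rarb annotation, was at 49.6 to 56.04 FPKM in aged and 50.7 to 52.22 FPKM in young libraries. Crabp2, at 1 read or none, lies 17721 bases from Nes, at 255.8 to 264.1 FPKM in aged and 269.5 to 275.2 FPKM in young libraries.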
